A study of Mus musculus with 3 samples.

Results

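Pax8 supporting-like cells are described here among fetal ovarian somatic cells (FOSCs), profiled as single cells by 3' RNA sequencing. FOSCs are cells of the E12.5 mouse ovary after depletion of germ cells, of which some remained. They were taken as cells with at least 1 unique molecular identifier (UMI, 1 counted RNA molecule) of Pax8 and at least 1 UMI of 2 or more of the 5 genes Aldh1a3, Lypd1, Cpa1, Stra6 and Egfl6, with no Pax2 UMI and with fewer than 5 Dazl UMIs. Of 28971 cells that held 200 to 9000 genes and at most 10% mitochondrial UMIs, 485 met this rule. They came from 3 frozen lots of 1 condition: lot 26 gave 175 of them, lot 29 gave 68 and lot 30 gave 242. Each lot was pooled from the fetal ovaries of 10 pregnant CD1 females, so that a lot mixes many embryos. The mesonephros was cut away, cells carrying SSEA1 or CD31 were depleted on magnetic columns, and the rest were frozen and thawed before capture. Nothing was treated or mutated, and the comparisons below are between cells of the same libraries, with the lot as the replicate.

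Supporting cells are the somatic cells that surround the germ cells, and in the fetal ovary they become granulosa cells under WNT signalling from Wnt4 and Rspo1. In the testis the same lineage turns on Sry and Sox9 and becomes Sertoli cells. Supporting-like cells that carry Pax8 and Aldh1a3 have been described in mouse fetal gonads of both sexes, at the border with the mesonephros, as a source of the rete, the network of channels that joins the gonad to its ducts. Pax8 is a paired-box transcription factor that, together with its relative Pax2, also marks the tubules and ducts of the mesonephros, which is why cells with Pax2 were set apart here.

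The cells were chosen by the UMI counts of these 8 genes, which are therefore described by their levels and carry no test. Levels are CPM, the UMIs of a gene scaled to a common total over all genes, after summing the cells of a group in 1 lot. Pax8 lies on the minus strand at chr2:24420560-24475599 (GRCm38), and it stood at 129, 145 and 125 CPM in lots 26, 29 and 30 of the supporting-like cells against a mean of 3.95 CPM over all other kept cells. Its promoter window in RefSeq, chr2:24475550-24475849 on the minus strand of GRCm38.p6, is shown because Pax8 names these cells, in lower case throughout since neither of the WNT-effector motifs searched below was found in it.

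Pax8 promoter: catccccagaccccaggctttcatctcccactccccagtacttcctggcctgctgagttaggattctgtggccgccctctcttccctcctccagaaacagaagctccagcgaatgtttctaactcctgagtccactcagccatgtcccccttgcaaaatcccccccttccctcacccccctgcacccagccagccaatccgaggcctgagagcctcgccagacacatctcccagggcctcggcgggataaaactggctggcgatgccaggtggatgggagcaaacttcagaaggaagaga

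Aldh1a3 (chr7:66390890-66427517, minus strand), an enzyme that makes retinoic acid, stood at 64.1, 58.7 and 51.2 CPM against 1.92 CPM in the other cells. Lypd1 (chr1:125867622-125913101, minus strand), a small membrane-anchored protein of the Ly6 family, was at 69.2, 73.3 and 59.8 CPM against 1.84 CPM. Egfl6 (chrX:166523007-166585720, minus strand), a secreted matrix protein, was at 219, 255 and 217 CPM against 34.1 CPM. Stra6 (chr9:58063788-58153996, plus strand), the cell-surface receptor that takes up vitamin A, was at 68.8, 34.7 and 54.6 CPM against 4.9 CPM, and Cpa1 (chr6:30639218-30645363, plus strand), a carboxypeptidase, at 119, 80 and 301 CPM against 73.1 CPM. The 3 lots were close for Pax8, Aldh1a3, Lypd1 and Egfl6, while Cpa1 ranged widely among them and was also the gene closest to its level in the other cells. Gene models overlap on the opposite strand at Pax8 (Gm13415), Lypd1 (Gpr39) and Stra6 (Ccdc33), and whether counting used the strand is not given in the sources used here.

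Single cells carried few molecules of the genes that chose them. Pax8 was seen as 1 UMI in 294 of the 485 cells (60.6%), as 2 UMIs in 115 and as 3 or more in 76. Egfl6 was detected in 426 of them (87.8%), Stra6 in 240 (49.5%), Lypd1 in 195 (40.2%), Aldh1a3 in 192 (39.6%) and Cpa1 in 171 (35.3%). In cells without Pax8, Egfl6 was found in 22.2% and Cpa1 in 20.5%, but Stra6 in 4.78%, Aldh1a3 in 1.95% and Lypd1 in 1.34%. Egfl6 and Cpa1 were therefore the least selective genes of the rule, and 74 of the supporting-like cells (15.3%) qualified through those alone, 15 in lot 26, 14 in lot 29 and 45 in lot 30. Exactly 2 of the 5 genes were found in 282 cells, 3 in 156, 4 in 43 and all 5 in 4.

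The 5 genes were also counted in cells with and without Pax8. Among the 1286 cells with Pax8 that had no Pax2 and fewer than 5 Dazl UMIs, 37.7% held at least 2 of the 5 (39.1%, 25.5% and 42.4% in lots 26, 29 and 30), against 7.76% of the cells without Pax8 under the same limits (8.86%, 5.65% and 8.54%). At least 3 of the 5 were held by 15.8% and 0.883%. Just outside the rule lay 468 cells with exactly 1 of the genes, whose Aldh1a3 was at 2.47 ± 0.912 CPM (SD, n = 3 lots) and Egfl6 at 129 ± 13.9 CPM. Just inside it, the 282 cells with exactly 2 had Aldh1a3 at 35.5 ± 13.7 CPM and Egfl6 at 197 ± 13.5 CPM. Both genes are among the 5 that were counted to sort these cells, so that rise comes with the sorting and is no support for the rule. The shares of cells with 2 or 3 of the 5 are counts of the rule's own genes as well. They describe the choice and are no support for it either. A further 75 cells passed the Pax8 and marker steps and were set aside for Pax2 or for 5 or more Dazl UMIs.

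Supporting-like cells made up 1.80% of kept cells in lot 26 (95% exact Clopper-Pearson interval 1.55 to 2.09), 0.795% in lot 29 (0.618 to 1.01) and 2.26% in lot 30 (1.99 to 2.56), a mean of 1.62% ± 0.750 (SD, n = 3). The intervals cover counting error alone, and with 1 condition no difference between lots has a replicate. Lot 29 was also the shallowest, with a median of 8949 UMIs per kept cell against 11126 in lot 26 and 11595 in lot 30, from totals of 8.7495e+07, 1.26681e+08 and 1.4192e+08 UMIs. When every cell was thinned to 4000 UMIs the shares became 0.434%, 0.361% and 0.636%, so the order of lots remained while the range narrowed. The share is one of cells in which these molecules were caught: asking for 2 Pax8 UMIs left 191 cells (0.635% on average) and asking for 3 of the 5 genes left 203 (0.675%).

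**Figure D1:**
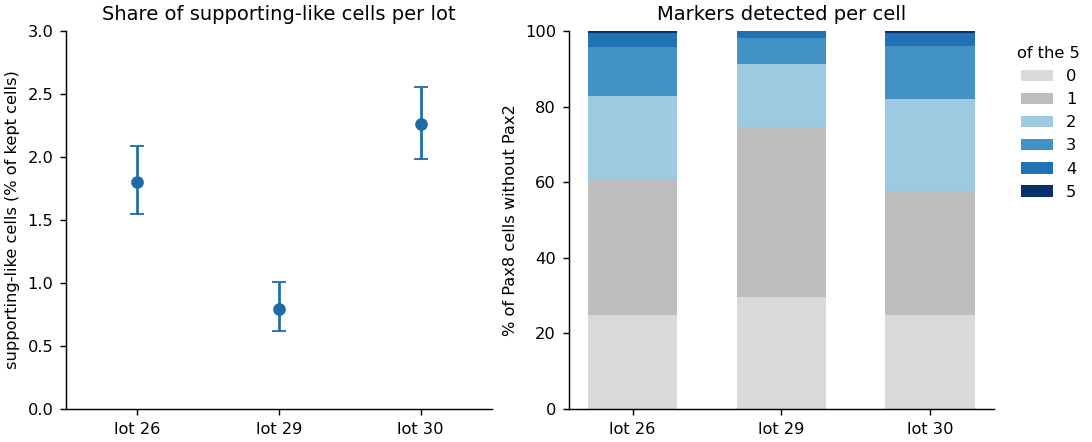
Left, supporting-like cells as a percentage of kept cells in each lot, with bars for exact 95% intervals of counting error. Right, stacked bars of the percentage of Pax8 cells without Pax2 that held 0 to 5 of the markers. Lot 29 was lowest in the left panel, at 0.795%, and had the smallest share of cells with 2 or more markers in the right, at 25.5%.

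Free RNA puts UMIs into droplets whose cell does not make them, so Pax8 was also counted in germ cells. Pax8 was found in 1463 kept cells (5.05%) and in 62 of 1418 cells with 5 or more Dazl UMIs (4.37%), where Dazl, an RNA-binding protein of germ cells, marks a different lineage. Those Dazl cells were deep, with medians of 22388, 18256 and 24068 UMIs. At 4000 UMIs per cell Pax8 was found in 2.38%, 2.01% and 2.50% of kept cells and in 0.987%, 0.915% and 1.05% of Dazl cells. Kept cells include the supporting-like cells, which were chosen for Pax8, while the rule bars these Dazl cells. In the other kept cells the shares were 1.59%, 1.55% and 1.42% in lots 26, 29 and 30. Their exact intervals of counting error overlapped those of Dazl cells in each lot. Whether Pax8 lay above the level of free RNA was therefore not tested. The Pax8, marker and Pax2 steps together were met by 14 of the 1418 Dazl cells (0.987%, unthinned).

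Markers of germ, red blood, endothelial and stromal cells summed lower in the supporting-like cells than in the other cells of each lot. The median depth of the supporting-like cells, 10887, 7577 and 10894 UMIs, was slightly below that of the other cells at 11132, 8954 and 11608. Scrublet called 43 of them doublets (8.87%) against 5.28% of the others, and 7 carried a Y-linked UMI (1.44%) against 4.76%. Lots shared 20 to 30 cell barcodes pairwise, and of these 0, 1 and 2 belonged to a supporting-like cell. The 11 germ cell markers summed to 65.0, 49.3 and 50.9 CPM in lots 26, 29 and 30, against 533, 327 and 262 CPM in the other cells. The Dazl limit of the rule applied to the supporting-like cells and not to the other cells, so the rule itself sets the germ sums apart. With the other cells held to the same limit, several germ genes turned higher in the supporting-like cells, as given at the end. Red blood cell genes summed to 84.8, 165 and 86.9 CPM against 1326, 3870 and 1371 CPM, with Hba-a2 at 0. The 9 endothelial markers summed to 81.8, 60.0 and 83.9 CPM against 166, 103 and 97.6 CPM, and the 16 stromal markers to 1318, 1055 and 1026 CPM against 1408, 1233 and 1289 CPM.

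The cells were then compared with the 28486 other kept cells and, more closely, with 19892 cells that held at least 1 UMI of Wnt6, a WNT ligand of supporting cells, and no Pax8. These Wnt6 cells were 68.7% of kept cells, and since Wnt6 UMIs were found in germ cells too they are a broad group and not a pure lineage. UMIs were summed per lot and group and tested with edgeR's quasi-likelihood test, 3 sums against 3, with Benjamini-Hochberg adjustment over all genes tested. Against all other cells 882 genes were called higher (5.93% of 14861 tested) and 1070 lower (7.2%). Against Wnt6 cells 738 were higher (5.17% of 14276) and 719 lower (5.04%). Sums of 1 lot come from 1 library, and with the lot as a replicate block the counts were 1692 and 2301 against other cells and 1483 and 1906 against Wnt6 cells. Leaving out 1 lot left 458 to 538 higher and 497 to 579 lower against other cells, and 393 to 471 higher and 283 to 410 lower against Wnt6 cells. Scaling by the sum of UMIs alone moved the share of calls that were higher from 45.2% to 56.8% against other cells (1062 higher, 809 lower) and from 50.7% to 65.4% against Wnt6 cells (945 and 501). The rule chose these cells by their RNA, so that genes accompanying its markers can differ through that choice. The p-values measure the spread among these 3 lots.

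Outside the rule, the largest log2 fold change against both groups among called genes that did not overlap and reached 20 CPM in every lot was that of Slc25a21, a mitochondrial carrier of oxodicarboxylates. It was at 32.9, 33.3 and 36 CPM in lots 26, 29 and 30 of the supporting-like cells, at 2.85, 2.19 and 2.11 CPM in Wnt6 cells and at 3.08, 2.21 and 2.4 CPM in the other cells. Every lot of the supporting-like cells was far above every lot of both groups. The log2 fold change was 3.76 ± 0.16 (SE) against Wnt6 cells (edgeR adjusted p = 6.62e-07) and 3.67 ± 0.17 against the others (edgeR adjusted p = 4.42e-07). Slc25a21 overlaps Pax9 on the opposite strand.

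Notum, a secreted enzyme that removes the lipid from WNT proteins and so blunts them, was at 22.8, 40 and 25.6 CPM, against 2.99, 2.02 and 1.59 CPM in Wnt6 cells and 4.35, 3.74 and 2.62 CPM in all others. Its log2 fold change was 3.56 ± 0.28 against Wnt6 cells (edgeR adjusted p = 2.54e-05) and 2.88 ± 0.25 against the others (edgeR adjusted p = 4.58e-05). Germ cells carried Notum too. At 4000 UMIs per cell it was found in 7.51%, 16.4% and 12.4% of supporting-like cells, in 4.80%, 6.40% and 6.32% of Dazl cells and in 0.659%, 0.551% and 0.549% of Wnt6 cells. At equal depth its share in germ cells thus lay between those of the other groups.

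Other genes set apart against both groups covered secreted factors, receptors and RNases. Fam132a, which encodes a secreted protein of the C1q family, was at 289, 376 and 292 CPM against 57.8, 60 and 60.2 CPM in Wnt6 cells (log2 fold change 2.32 ± 0.12, edgeR adjusted p = 1.85e-06). Rnase4, a secreted ribonuclease whose gene overlaps Ang on the same strand, was at 103, 116 and 119 CPM against 16.9, 15.8 and 20.3 CPM (2.57 ± 0.12, edgeR adjusted p = 9.69e-07). Itm2a, a type II membrane protein, was at 595, 560 and 493 CPM against 109, 102 and 108 CPM (2.27 ± 0.10, edgeR adjusted p = 8.26e-07). The groups did not overlap for any of these, as was so for 17.8% of all genes on the higher and 13.4% on the lower side against Wnt6 cells, and for 17.1% and 16.9% against all others. Pdgfc, a platelet-derived growth factor, was at 115, 120 and 91.8 CPM against 18, 16.8 and 21.4 CPM (2.42 ± 0.13), and Nrp1, a co-receptor for semaphorins and VEGF, at 124, 103 and 95.1 CPM against 22.2, 15.6 and 15.1 CPM (2.52 ± 0.15). Nell1, a secreted protein with EGF-like repeats (2.96 ± 0.16), Cd83, a membrane protein best known on dendritic cells (2.89 ± 0.16), Ifit2, an interferon-induced protein (3.13 ± 0.19), and Cnr1, the cannabinoid receptor (2.44 ± 0.16), were called in the same direction against Wnt6 cells. Each gene of this paragraph kept its call against Wnt6 cells under each alternative tried.

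By the smaller of the log2 fold changes against the 2 groups, the 10 genes whose pattern was most like that of Pax8, among those at 20 CPM or more on average over the lots, were Rnase12, AY761185, Slc25a21, Dpp4, Ifit2, Cd83, Notum, Nell1, Bmpr1b and Scrn1. Rnase12 was at 33.3, 20 and 15.9 CPM in the supporting-like cells and between 0.166 and 0.246 CPM in Wnt6 cells. Dpp4, a cell-surface dipeptidase, was at 33.7, 18.7 and 20.4 CPM against 1.94, 1.65 and 1.51 CPM. Likeness was measured over 3 lots and 3 groups of cells.

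The supporting-lineage genes were mixed, some higher and some lower than in Wnt6 cells. Of 17 tested after Wnt6 itself was left out, 4 were called higher and 8 lower, with a median log2 fold change of -0.08 beside -0.03 over all genes. Wnt6 was found in 395 of the supporting-like cells (81.4%), in 72.3% of cells without Pax8 and in 46.1% of the deeper Dazl cells. At 4000 UMIs per cell it was found in 64.2%, 62.7% and 63.9% of supporting-like cells of lots 26, 29 and 30, in 58.9%, 56.2% and 60.9% of the other kept cells and in 15.9%, 10.1% and 12.4% of Dazl cells. Without each lot in turn, 2 genes of the list were called higher and 5 or 6 lower.

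Wnt4, the WNT ligand of ovarian supporting cells, was at 707, 937 and 896 CPM in the supporting-like cells, at 364, 381 and 422 CPM in Wnt6 cells and at 317, 312 and 373 CPM in all others. The groups did not overlap, with a log2 fold change of 1.03 ± 0.13 against Wnt6 cells (edgeR adjusted p = 0.000907) and 1.27 ± 0.13 against all others (edgeR adjusted p = 0.000164). Nr0b1, the orphan receptor DAX1 of the early gonad, was at 77.2, 86.7 and 72 CPM against 23.3, 30.5 and 26.8 CPM (1.42 ± 0.15, edgeR adjusted p = 0.000186). Both kept their call under each alternative tried.

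On the lower side stood genes known from pre-granulosa cells. Lgr5, an R-spondin receptor, was at 23.6, 20 and 22.9 CPM against 77.2, 49 and 66.7 CPM in Wnt6 cells (-1.59 ± 0.17, edgeR adjusted p = 0.000227). Bmp2, a bone morphogenetic protein, was at 47.2, 57.3 and 68 CPM against 108, 118 and 144 CPM (-1.18 ± 0.17, edgeR adjusted p = 0.0014). Kitl, the ligand of the germ cell receptor Kit, was at 201, 247 and 246 CPM against 378, 398 and 396 CPM (-0.86 ± 0.12, edgeR adjusted p = 0.00131). For these genes, too, the ranges were separate. Irx3, a homeobox factor of granulosa cells, was lower by a log2 fold change of -0.77 ± 0.10 (edgeR adjusted p = 0.00107). Gng13, a G protein subunit, was at 419, 293 and 240 CPM against 999, 572 and 555 CPM (-1.24, edgeR adjusted p = 0.0067), and without lot 29 its adjusted p was 0.0573.

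Several genes that define supporting cells did not pass the test. Fst, the activin-binding follistatin, was at 420, 452 and 510 CPM in the supporting-like cells and at 422, 481 and 464 CPM in Wnt6 cells (edgeR adjusted p = 0.758). Runx1 was at 89, 112 and 106 CPM against 90.9, 90.4 and 93.3 CPM (edgeR adjusted p = 0.832). Foxl2, the granulosa transcription factor, was scarce in both groups, at 5.48, 2.67 and 2.74 CPM against 3.65, 2.41 and 2.42 CPM (edgeR adjusted p = 0.636). Of the genes that mark supporting cells, Wnt4, Wnt6, Fst, Runx1 and Nr0b1 were thus present, while Foxl2 was close to 0.

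Genes of the founding gonad went both ways, with 3 of 15 called higher than in Wnt6 cells and 3 lower, beside 5.17% and 5.04% of all genes. Lhx9, a LIM homeobox factor that gonad formation needs, was at 118, 215 and 173 CPM against 335, 363 and 424 CPM (-1.27 ± 0.19, edgeR adjusted p = 0.00209). Nr2f1, the nuclear receptor COUP-TFI, was at 44.7, 80 and 61.9 CPM against 13.2, 14.8 and 16.1 CPM (1.92 ± 0.19, edgeR adjusted p = 0.000126). Wt1, Gata4 and Emx2, which mark the gonadal somatic lineage broadly, did not pass the test.

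Of 14 Sertoli genes tested, 1 was called higher and 2 lower than in Wnt6 cells, beside 5.17% and 5.04% of all genes. So few calls are not read as a result about the list. The higher one was Sox9, the Sertoli-determining factor that ducts and rete also carry, at 78.9, 104 and 163 CPM against 24, 56.4 and 52.4 CPM (1.31 ± 0.34, edgeR adjusted p = 0.036). That call was lost without lot 29 (adjusted p = 0.0891), without lot 30 (adjusted p = 0.0636) and in DESeq2 (adjusted p = 0.0733). Against all other cells Sox9 was higher by 1.54 ± 0.33 (edgeR adjusted p = 0.0112), and its adjusted p was 0.0683 without lot 29. Amh, the hormone of Sertoli cells, stayed at 1.27, 2.67 and 2.44 CPM in the supporting-like cells while it reached 16.9 and 57.5 CPM in the Wnt6 cells of lots 26 and 29 and was at 1.74 CPM in those of lot 30 (edgeR adjusted p = 0.186, and 6.79e-10 with the replicate block). The authors reported some contaminating Sertoli cells in each lot. Y-linked UMIs were found in 3.13%, 8.71% and 0.764% of the Wnt6 cells of lots 26, 29 and 30. The part of such cells in the Amh level was not tested.

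Among 31 WNT pathway genes tested, 6 were called higher than in Wnt6 cells and 1, Wnt5a, lower, with a median of 0.25 beside -0.03 over all genes. The higher ones included feedback targets of the pathway. Axin2, a scaffold of the beta-catenin destruction complex, was at 102, 108 and 93.9 CPM against 57.3, 46.6 and 53.6 CPM (0.84 ± 0.10, edgeR adjusted p = 0.00043). Nkd1, an inhibitor acting on Dishevelled, was at 115, 123 and 120 CPM against 61, 53.1 and 65.2 CPM (0.90 ± 0.10, edgeR adjusted p = 0.000321). With Lgr4, an R-spondin receptor (0.60 ± 0.09, edgeR adjusted p = 0.00231), and Notum, they kept their calls under each alternative tried. Znrf3, a ubiquitin ligase that removes WNT receptors, was at 0.75 ± 0.19 (edgeR adjusted p = 0.0338) and lost its call without lot 26 (adjusted p = 0.156) and without lot 29 (adjusted p = 0.125). Without each lot in turn, 4 to 6 genes of the list were higher.

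Sp5, a transcription factor and target of WNT signalling, was at 86.5, 111 and 97.3 CPM against 63.8, 81.6 and 83.6 CPM in Wnt6 cells, where it did not pass the test (edgeR adjusted p = 0.359) but was called with the replicate block (adjusted p = 0.0152). Its promoter window, chr2:70474673-70474972 on the plus strand of GRCm38.p6, is shown because it was the only one of 4 available windows of 7 WNT genes looked up that held a match to CTTTGAT or CTTTGTT, the core letters bound by TCF and LEF factors, searched on both strands. Capitals mark the matches, the left one being the reverse complement of CTTTGTT.

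Sp5 promoter: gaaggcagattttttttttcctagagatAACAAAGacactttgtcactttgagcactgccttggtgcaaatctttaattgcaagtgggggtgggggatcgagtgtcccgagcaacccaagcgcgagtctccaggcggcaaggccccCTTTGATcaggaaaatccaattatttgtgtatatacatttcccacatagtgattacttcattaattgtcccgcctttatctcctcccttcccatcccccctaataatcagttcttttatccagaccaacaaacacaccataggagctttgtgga

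Of 32851 RefSeq promoter windows of this length, 9.33% held at least 1 of the motifs, 3.73% CTTTGAT and 5.85% CTTTGTT. Among the genes of the rule, 1 of 10 windows held a match, a window of Stra6. A match in these letters is a description of the window and does not show that a factor binds there. No window was at hand for Aldh1a3, Notum, Znrf3 and Rspo3.

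BMP and TGF-beta genes had 6 of 27 called higher than in Wnt6 cells and 1, Bmp2, lower, with a median log2 fold change of 0.43. Bmpr1b, a type I BMP receptor, was at 32.5, 30.7 and 23.5 CPM against 4.55, 3.43 and 4.89 CPM (2.62 ± 0.18, edgeR adjusted p = 1.22e-05). Tgfb2, a TGF-beta ligand, was at 127, 78.7 and 135 CPM against 28.7, 23.6 and 29.7 CPM (2.02 ± 0.16, edgeR adjusted p = 2.71e-05). Bambi, a decoy receptor, was at 193, 185 and 192 CPM against 85.1, 88.9 and 93.5 CPM (1.0 ± 0.10, edgeR adjusted p = 0.000128). The homeobox gene Msx1, a BMP target, was higher by 1.35 ± 0.11 (edgeR adjusted p = 3.26e-05). A ligand, a receptor, a decoy and a target were thus higher than in Wnt6 cells, while the ligand Bmp2 was lower. Against the Pax8 Pax2 cells described below, 0 of 16 genes of the list tested were called either way. Without each lot in turn, 5 to 7 genes of the list were higher.

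IGF genes split, with 3 of 12 called higher and 4 lower. The binding proteins Igfbp5, at 715, 632 and 646 CPM against 247, 173 and 241 CPM (1.51 ± 0.13, edgeR adjusted p = 4.5e-05), and Igfbp6, at 59.5, 48 and 55.2 CPM against 15.8, 17.1 and 17.1 CPM (1.63 ± 0.12, edgeR adjusted p = 2.04e-05), were among the higher. Igfbp2, Igfbp3, Igfbpl1 and the growth factor Igf1 were the lower ones.

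Basement membrane genes had 8 of 18 called higher than in Wnt6 cells and 1, Col4a1, lower, with a median of 0.41. Hspg2, which encodes perlecan, was at 67.5, 52 and 56.4 CPM against 30.4, 19.4 and 26 CPM (1.15 ± 0.15, edgeR adjusted p = 0.00102). Col4a5, a collagen IV chain, was at 80.1, 58.7 and 67.7 CPM against 38.6, 27.5 and 32.4 CPM (1.01 ± 0.13, edgeR adjusted p = 0.000939). The list kept 5 to 7 higher genes without each lot in turn. Of 21 epithelial junction genes, 5 were higher and 2 lower. The higher ones included Ncam1, a neural cell adhesion molecule, at 212, 131 and 159 CPM against 43.6, 30.6 and 39 CPM (2.09 ± 0.16, edgeR adjusted p = 2.13e-05), and Ocln, the tight-junction occludin, at 7.17, 6.67 and 6.71 CPM against 0.541, 0.499 and 0.531 CPM (3.62 ± 0.32, edgeR adjusted p = 7.22e-05).

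Retinoic acid genes beyond those of the rule had 1 of 17 called higher than in Wnt6 cells and 4 lower, beside 5.17% and 5.04% of all genes. The lower ones were Rbp4, Crabp1, Fabp5 and Aldh1a1. The vitamin A storage enzyme Lrat and the retinoic-acid-degrading Cyp26a1 had no UMI in any supporting-like cell (0 of 485 cells, which allows a share of cells with a UMI of up to 0.619%).

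Cell cycle genes were lower together. All 20 genes of the G2/M list were fitted lower than in Wnt6 cells and 19 were called, with a median log2 fold change of -0.93, and 16 of 20 S-phase genes were called lower, with a median of -0.71. Ccnb2, a mitotic cyclin, was at 36.7, 32 and 27.8 CPM against 79.7, 81.8 and 70.5 CPM (-1.37 ± 0.13, edgeR adjusted p = 0.000128). Mcm3, part of the replicative helicase, was at 46.4, 42.7 and 40.9 CPM against 80.9, 82.2 and 82.6 CPM (-1.01 ± 0.10, edgeR adjusted p = 0.000181). Top2a, topoisomerase II, at 125, 164 and 84.2 CPM against 220, 200 and 197 CPM, lost its call without lot 26 (adjusted p = 0.075). Leaving out lot 26, 29 or 30 left 10, 18 and 16 G2/M genes and 9, 11 and 5 S-phase genes called lower.

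The same was seen per cell at equal depth. At 4000 UMIs the mean number of UMIs from the G2/M list was 2.02, 2.24 and 1.54 in supporting-like cells of lots 26, 29 and 30, against 4.20, 4.24 and 4.04 in Wnt6 cells. The share of cells with no UMI of the list was 53.2%, 56.7% and 54.8%, against 44.1%, 49.4% and 47.0%. Cdkn1a, the cyclin-dependent kinase inhibitor p21, was at 182, 191 and 181 CPM against 60.7, 84.2 and 69.5 CPM (1.26 ± 0.15, edgeR adjusted p = 0.000418). Cdkn1a also responds to stress. Of 18 immediate-early and stress genes 1, Ier3, was called higher, beside 5.17% of all genes. It was not called without lot 26 (edgeR adjusted p = 0.0605) or lot 29 (edgeR adjusted p = 0.117). Their sum was higher in the supporting-like cells in each lot, at 7978, 9830 and 17793 CPM against 6932, 8154 and 14185 CPM in Wnt6 cells, highest in lot 30 in both groups. With the lot as a replicate block, 12 of these stress genes were called higher and 5 lower. The part of stress in the level of Cdkn1a was not tested.

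**Figure D2:**
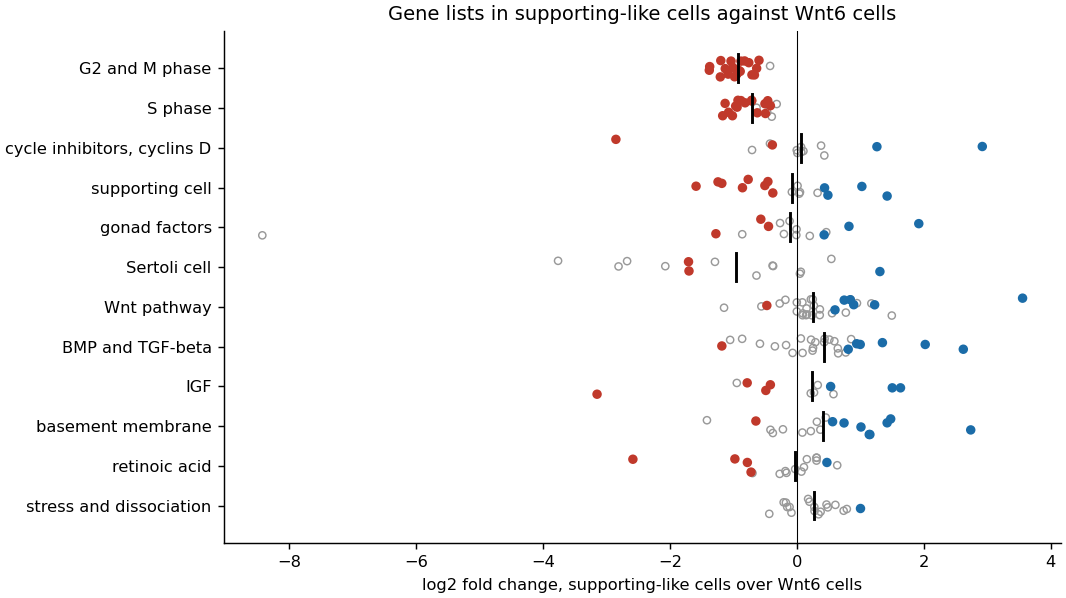
Log2 fold change of the supporting-like cells over Wnt6 cells without Pax8 for each gene of the lists described, with 1 point per gene filled points for genes called by edgeR (blue higher, red lower, adjusted p under 0.05), open points for the rest and a black bar at each median. The G2/M and S-phase lists lay below 0, at medians of -0.93 and -0.71, while the BMP and TGF-beta and basement membrane lists had medians of 0.43 and 0.41.

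Germ and red blood cell genes were lower than in Wnt6 cells (7 of 11 and 4 of 6 called, with medians of -2.59 and -2.94). The Dazl limit applied to the supporting-like cells and not to the Wnt6 cells, and when Wnt6 cells with 5 or more Dazl UMIs or a Y-linked UMI were left out the median of the 10 germ genes tested was 0.18. Of 16 stromal genes, 2 were called higher than in Wnt6 cells, Maf and Dlk1, and 1 lower, beside 5.17% and 5.04% of all genes. Against all other cells 1 was higher and 7 were lower, beside 5.93% and 7.2% of all genes. Pdgfra, Pdgfrb, Dcn and Lum were among those lower than in all other cells.

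Other genes were followed along the number of the 5 markers found in a Pax8 cell, as a description without a test. That number counts the rule's own genes. Most genes followed this way did not rise or fall at every step in all lots. Those named here, apart from Sox9, were picked from the ones that did. The stress genes Jun, Junb and Dnajb1 also climbed at each step in all 3 lots. Wnt4 averaged 329 CPM in cells without Pax8, and 417, 662, 787 and 945 CPM in Pax8 cells with 0, 1, 2 and 3 or more of the markers. Fam132a averaged 55.2 CPM without Pax8, then 73.3, 119, 263 and 411 CPM. Notum was at 3.14 CPM without Pax8, then at 2.60, 6.33, 19.4 and 47.0 CPM. From 0 to 3 or more markers, the levels of all 3 genes climbed at each step in each of the 3 lots. Sox9 averaged 31.5, 61.3, 89.1 and 160 CPM along the same steps but dipped in lot 29 between 1 and 2 markers, from 78.2 to 60 CPM. In the other direction Lhx9 averaged 303, 267, 185 and 143 CPM and Ube2c, a mitotic ubiquitin-conjugating enzyme, 223, 168, 126 and 50.1 CPM, each lower at every step in all 3 lots.

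**Figure D3:**
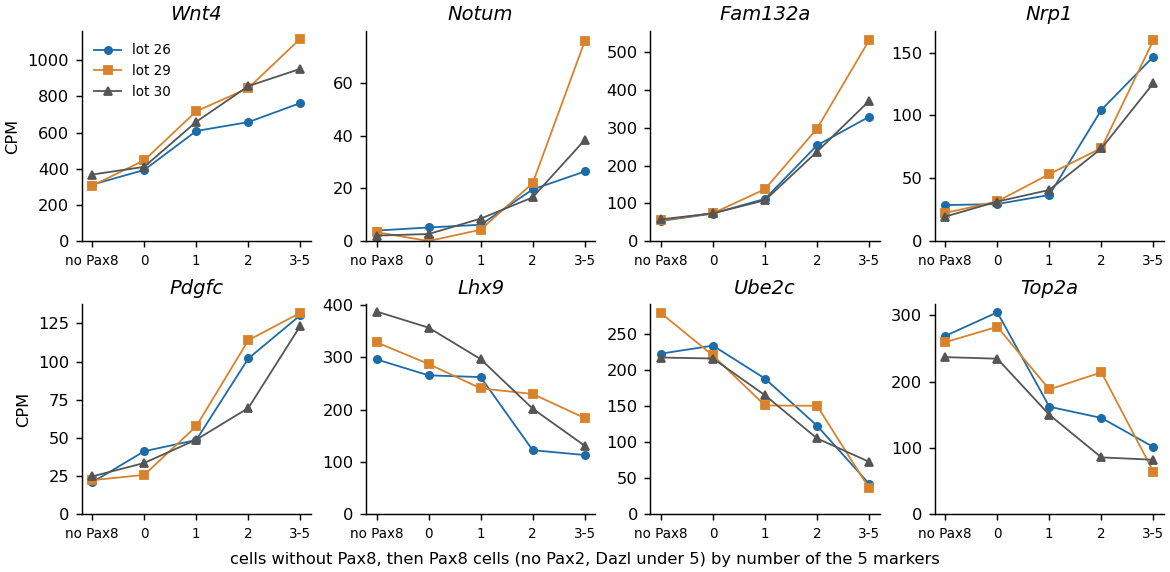
Level in CPM of 8 genes, each on its own linear axis, in cells without Pax8 and in Pax8 cells with 0, 1, 2 and 3 or more of the 5 markers, with 1 line per lot. Wnt4, Fam132a and Notum were picked because they climbed from 0 to 3 or more markers in every lot, and Lhx9 because it fell. Wnt4 went from a mean of 417 to 945 CPM and Lhx9 from 303 to 143 CPM.

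Pax2 was found together with Pax8 and fewer than 5 Dazl UMIs in 115 cells (38, 32 and 45 per lot), and these Pax8 Pax2 cells were set beside the supporting-like cells. Of 7973 genes tested, 19 were called higher in the supporting-like cells (0.238%) and 118 lower (1.48%), and with the lot as a replicate block 198 and 305. Leaving out 1 lot left 0 to 23 genes higher and 20 to 114 lower. In the main fit 0 of 16 BMP and TGF-beta, 0 of 11 IGF and 0 of 14 basement membrane genes were called. With the block some were, among them Tgfb2, Bambi and Igfbp5 higher and Igfbp7 lower. The BMP and TGF-beta list summed to 1719, 2356 and 3042 CPM in Pax8 Pax2 cells. Its sums were 2196, 2544 and 3466 CPM in supporting-like cells and 1388, 1441 and 2222 CPM in Wnt6 cells. The Pax2 step of the rule and the filter on low counts favour genes that are high in the Pax8 Pax2 cells, so counts over the tubule and duct list are not read here. Only 8 of the 18 genes of that list found in all tables were tested, and their direction is not read. Against Wnt6 cells the same list had 3 of 14 called higher, with a median of 0.66, namely Ret, a receptor of the nephric duct, at 12.2, 8 and 11 CPM against 1.31, 0.896 and 0.957 CPM, and at lower levels Cdh16 and Cldn3, whose calls were lost without lot 29 (adjusted p = 0.068 and 0.0666) and for Cldn3 also without lots 26 and 30 (0.258 and 0.114).

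Lhx1, a LIM homeobox factor of the nephric duct, was at 0.422, 0 and 0.305 CPM in supporting-like cells of lots 26, 29 and 30. In the Pax8 Pax2 cells it was at 171, 277 and 98.3 CPM. Wnt7a was at 0, 0 and 0.61 CPM against 46.7, 33.7 and 32.3 CPM. Both genes passed the filter on low counts through the Pax8 Pax2 cells, which Pax2 set apart, so their levels are given without a test. Epcam, an epithelial adhesion molecule, was at 43, 20 and 14 CPM against 177, 423 and 182 CPM (log2 fold change -3.32, edgeR adjusted p = 0.00338). Lhx1 and Wnt7a were thus at or close to 0 in the supporting-like cells, and Epcam was not. Cldn7, a claudin (-4.29), Wfdc2 (-5.03) and Spp1, the secreted osteopontin (-4.83), were fitted lower likewise. They had few UMIs in the supporting-like cells, with 0 for Cldn7 and Spp1 in lot 29, so no test is read for them either.

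In the other direction Itm2a was at 595, 560 and 493 CPM against 238, 87.9 and 211 CPM (1.61 ± 0.26, edgeR adjusted p = 0.0116). Aard was at 68.8, 72 and 69.5 CPM against 28, 31.8 and 29.4 CPM (1.23, edgeR adjusted p = 0.00597), and Nr0b1 was higher by 1.27. Without lot 26 these calls were lost, with adjusted p-values of 0.117 for Itm2a, 0.154 for Aard and 0.242 for Nr0b1, and those of Aard and Nr0b1 were also lost without lot 30 (0.0560) and lot 29 (0.0841). Wnt4 (edgeR adjusted p = 0.0595), Slc25a21 (edgeR adjusted p = 0.0953), Sox9 and Cdkn1a did not pass the test, and with the replicate block Wnt4 (adjusted p = 0.00136) and Slc25a21 (adjusted p = 0.0358) were called higher. Notum was lower than in the Pax8 Pax2 cells (-1.2 on the log2 scale), a call lost without lot 26 (adjusted p = 0.234) and lot 30 (adjusted p = 0.166).

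**Figure D4:**
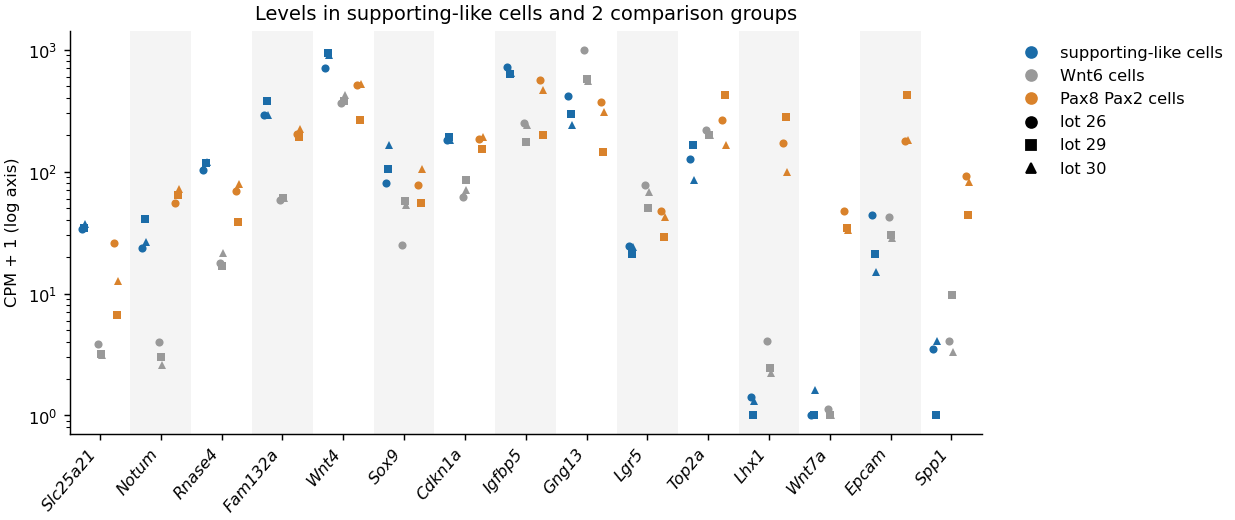
Levels of 15 genes as CPM + 1 on a log axis, with 1 point per lot, in the supporting-like cells, in Wnt6 cells without Pax8 and in Pax8 Pax2 cells. Slc25a21 and Notum stood at 22.8 to 40 CPM in the supporting-like cells and at 1.59 to 2.99 CPM in Wnt6 cells. Notum was fitted higher still in the Pax8 Pax2 cells, where Lhx1 and Wnt7a also stood apart.

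Wnt6 divided the supporting-like cells themselves, in a comparison chosen after the data were seen. It was not found in 90 of them (35, 15 and 40 per lot), whose median depths of 8072, 5754 and 7786.5 UMIs were below the 11414.5, 8025 and 12073.5 UMIs of the 395 with Wnt6. Of 6580 genes tested, 101 were higher without Wnt6 (1.53%) and 103 lower (1.57%), with 168 and 207 under a replicate block. Leaving out 1 lot left 28 to 68 higher and 33 to 60 lower, and requiring 2 Pax8 UMIs left 11 and 17. As a description, Pax8 itself was at 252, 259 and 231 CPM without Wnt6 and at 110, 127 and 113 CPM with it. The rule asked every cell for at least 1 Pax8 UMI at any depth, which raises Pax8 CPM in the shallower cells. That difference is therefore not read.

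Some of the genes that set the supporting-like cells apart were higher in the cells without Wnt6 and others were not. Notum was at 73.4, 144 and 93 CPM without Wnt6 and at 15.1, 23.2 and 18 CPM with it (2.35 ± 0.28, edgeR adjusted p = 0.000585). Itm2a was at 1063, 1084 and 1212 CPM against 524, 475 and 412 CPM (1.22 ± 0.13, edgeR adjusted p = 0.00025). Fam132a was at 616, 901 and 780 CPM against 239, 291 and 237 CPM (1.53), and Rnase4 at 211, 249 and 357 CPM against 86.5, 94.5 and 91.7 CPM (1.58). Their ranges did not overlap, as was so for 10.9% of all genes on the higher and 9.3% on the lower side, but with 2 Pax8 UMIs required the adjusted p of Notum, Itm2a and Fam132a was 0.0521. Sox9 was higher by 1.25 (edgeR adjusted p = 0.0406, and 0.315 without lot 29). Slc25a21 (edgeR adjusted p = 0.305), Bmpr1b (edgeR adjusted p = 0.166) and Cnr1 (edgeR adjusted p = 0.723) did not pass the test. Jakmip1 was at 16, 19.2 and 18 CPM without Wnt6 against 48.6, 48 and 54.3 CPM with it. It passed the filter on low counts through the cells with Wnt6, so no test is read for it.

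The supporting genes ran the other way, with 10 of 16 called lower in the cells without Wnt6, beside 1.57% of all genes, and a median of -1.43. Genes scarce without Wnt6 could pass the filter on low counts through the cells with it, which favours lower calls. Without that filter, the 17 genes of the list summed to 2128, 3078 and 2646 CPM without Wnt6 and to 3738, 3823 and 3850 CPM with it. Fst was at 25.5, 182 and 141 CPM without Wnt6 and at 480, 496 and 552 CPM with it (-2.36, and an adjusted p of 0.0658 in DESeq2). Gng13 was at 63.8, 28.8 and 33 CPM against 473, 336 and 264 CPM (-3.03). Bmp2 was at 12.8, 0 and 12 CPM against 52.5, 66.6 and 74.3 CPM. Lgr5 had no UMI in the cells without Wnt6 (0 of 90 cells, which allows a share of up to 3.33%). In those with it, Lgr5 was at 27.2, 23.2 and 25.5 CPM. Bmp2 and Lgr5 passed the filter on low counts through the cells with Wnt6, so their levels are given without a test. Wnt4 (0.53, edgeR adjusted p = 0.183, and 0.00112 with the replicate block), Nr0b1 and Cdkn1a did not pass the test between the groups. Only 11 of 20 G2/M genes passed the filter on low counts, some of them, such as Ccnb2, through the cells with Wnt6 alone. The number of those called is therefore not read. Summed over all 20 genes, the list was at 514, 173 and 135 CPM without Wnt6 and at 848, 1202 and 876 CPM with it. Scrublet's 43 doublet calls all fell on the cells with Wnt6 (10.9% of 395, and 0 of 90 without it). With doublets removed 62 genes were higher and 73 lower, and the call of Sox9 was lost (adjusted p = 0.158). The part of depth in these results was not tested.

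**Figure D5:**
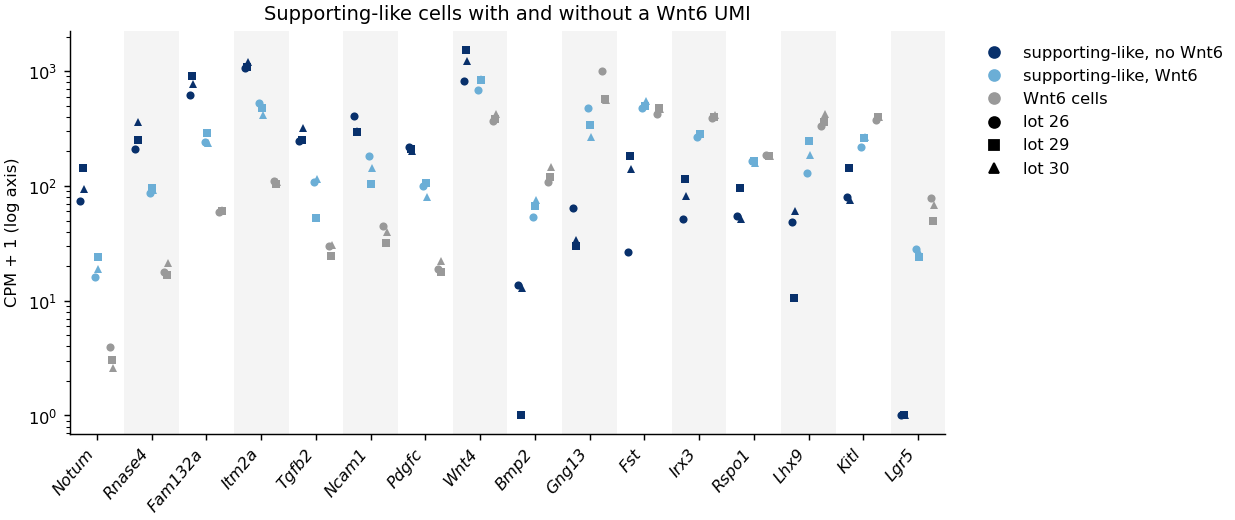
Levels of 16 genes as CPM + 1 on a log axis, with 1 point per lot, in supporting-like cells without and with a Wnt6 UMI and in Wnt6 cells without Pax8. Notum, Itm2a and Fam132a were higher in the cells without Wnt6, and Fst, Gng13 and Bmp2 lower, while Wnt4 did not pass the test without the replicate block.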

How the data were processed

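The 3 lots were deposited as gene by cell tables of counts, whole numbers of UMIs per gene that the authors made, per the labels, with UMI-tools, STAR 2.7, featureCounts 2.0.1 and Seurat on GRCm38. The annotation release and the use of strand are not given in the sources used here. Cells were kept and groups formed by the rule given above, over the 17460 genes that all 3 tables list. The members, the gene lists and the tests were chosen with earlier results of these data known.

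UMIs were summed per lot and group and tested in edgeR 4.0.16 (R 4.3.3) by the quasi-likelihood test with TMM scaling, filterByExpr and an adjusted p threshold of 0.05, 6 sums a fit. In simulated counts for the comparison with Wnt6 cells this recovered 68% of genes changed by a log2 fold change of 1 and 98% of those changed by 2, and 42% and 80% for the comparison with Pax8 Pax2 cells. Sums of 1 lot come from the same library and are so paired; the fit has no block, and the block is an alternative. Doublets were called with Scrublet (scanpy 1.11.5, expected share 8%) and kept. The genes named outside the lists were the 12 with the largest change per direction among called genes whose groups did not overlap and that reached 20 CPM in every lot of the higher group, and the 10 most like Pax8. Other genes were named after their values were seen, and some genes are not reported here. Alternatives were DESeq2 1.42.0 and other scaling, filters, cell choices and lots left out.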

Additional observations from a re-analysis of the deposited data

How the results depend on the processing

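The share of supporting-like cells moved from 1.62% to 0.675% with 3 of the 5 markers required, to 0.635% with 2 Pax8 UMIs and to 0.477% with each cell thinned to 4000 UMIs, and stayed within its spread in the other settings (1.30% to 2.03% with 1 lot left out).

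Counts of called genes below are given as higher and lower. The replicate block gave 1692 and 2301 against other cells, 1483 and 1906 against Wnt6 cells, 198 and 305 against Pax8 Pax2 cells and 168 and 207 between cells without and with Wnt6. It lost no call of a listed gene, and the genes named as not passing that it called are given beside their values above. Sums thinned to the smallest gave 292 and 298, 240 and 181, 10 and 52, and 23 and 17. With 1 lot left out they ran from 458 to 538 and 497 to 579, from 393 to 471 and 283 to 410, from 0 to 23 and 20 to 114, and from 28 to 68 and 33 to 60. No filter on low counts gave 332 and 484 against Pax8 Pax2 cells and 153 and 265 for the Wnt6 split. Against Pax8 Pax2 cells the number higher was 42 in DESeq2, 39 without doublets, 63 with 2 Pax8 UMIs and 52 with 3 of 5 markers. For the Wnt6 split it was 62 without doublets, 11 (and 17 lower) with 2 Pax8 UMIs and 46 (and 47 lower) with 3 of 5 markers.

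Chosen after seeing the data were the Wnt6 split and 2 settings. Only supporting-like cells with Wnt6 left 455 genes lower than in Wnt6 cells, and only other cells with Dazl under 5 left 684 lower. Without those germ cells the fitted log2 change turned for Cdkn2a (0.62), Dazl (0.015), Ddx4 (0.82), Dnd1 (0.25), Dppa3 (0.084), Mael (0.51), Rhox9 (0.20), Smc1b (0.048), Stra8 (0.95) and Sycp3 (0.35). Against Wnt6 cells with Dazl under 5 and no Y-linked UMI it turned for Cdkn2a (0.76), Dazl (0.073), Ddx4 (0.95), Dppa3 (0.25), Rhox5 (0.089), Rhox9 (0.39), Smc1b (0.17), Stra8 (1.02) and Sycp3 (0.31). The cause of the other changes was not tested.

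Counting depth limits genes with few UMIs, 68 cells make up the smallest lot, and 2 lots a group leave few degrees of freedom when 1 is left out.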
